A study of Mus musculus with 3 samples.

Results

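W4-08-PR cells were compared with C2C12-PR cells, the pair of cultures that differed in Wnt4 and shared the growth medium. C2C12 is a line of mouse myoblasts, cells that proliferate in rich serum and fuse into myotubes when serum is lowered. W4-08 is a stable C2C12 subline that carries a V5-tagged Wnt4 cDNA behind a CMV promoter together with a blasticidin resistance cassette, and it was obtained by several weeks of selection in blasticidin. The untransfected parental cells were used as the control, so that vector, selection and Wnt4 differ together between the cultures and cannot be told apart. Both cultures were kept in DMEM with 10% fetal bovine serum, a medium in which W4-08 cells can nevertheless form myotubes per the paper's description of the line. The purpose of the comparison was to find miRNAs that accompany differentiation. Of the 3 arrays of the study these are 2, chosen by their titles. The remaining array, C2C12-DF, held parental cells in 2% horse serum and is quoted only beside the miRNAs it bears on. Each culture was measured on 1 single-colour miRNA array with total RNA labelled with Cy5. No test was therefore possible, and W4-08 is known here from 1 subline only. Wnt4 itself has no probe on a miRNA array, so its over-expression was not checked. RNA extraction is given as miRNeasy in the sample descriptions and as Isogen in the paper.

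All 1265 mouse miRNA probes of the array entered the comparison. A probe was taken as detected where the deposited data give it a background-subtracted value, which held for 339 probes on the C2C12-PR array and 477 on the W4-08-PR array. Detection on both arrays was reached by 302 probes, on W4-08-PR alone by 175, on C2C12-PR alone by 37, and on neither by 751. Values below are given in array units above background, which is what a spot read beyond the blank spots of its own array (their mean, trimmed by 5%, was 95.9 units for C2C12-PR and 99.9 for W4-08-PR). Single blank spots varied by 7.59 and 6.43 units (SD), and 7.15% and 6.85% of them lay above the dimmest detected probe of their array. The spike control spots averaged 30657 and 32164 units above background, with coefficients of variation of 8.05% and 6.58%. The ± beside a log2 ratio is the SD that blank and spike spots imply for 1 spot on each array. It covers the array alone and not the variation between cultures.

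A miRNA is a short RNA that is cut from a hairpin precursor and guides Argonaute proteins to messenger RNAs, which it represses. Recognition rests mostly on the seed, the bases from position 2 to position 8 of the mature miRNA, so that miRNAs of one seed can share targets. In muscle a small group of miRNAs, the myomiRs, is switched on with differentiation under the control of myogenic transcription factors such as MyoD and myogenin. miR-1, miR-133 and miR-206 belong to it. miR-221 and miR-222 are known as miRNAs of proliferating cells that target the cell cycle inhibitor p27.

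The mature sequences of the miRNAs that stood farthest from equality are shown first, since they include 1 pair of one seed (miR-221-3p and miR-222-3p) and several of unrelated seeds. They are RefSeq sequences on build GRCm38.p6, found by name for 1024 of the 1265 probes and for 246 of the 302 detected on both arrays, and the seed is in capitals.
miR-206-3p: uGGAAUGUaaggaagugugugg
miR-133b-3p: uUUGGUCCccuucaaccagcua
miR-221-3p: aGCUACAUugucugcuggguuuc
miR-222-3p: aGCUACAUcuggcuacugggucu
miR-6412: uCGAAACCauccucagcuacua
miR-3963: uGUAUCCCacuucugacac
miR-6364: uCGAUCCCcagcacuccuguga
miR-3072-3p: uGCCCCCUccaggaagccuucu
miR-1983: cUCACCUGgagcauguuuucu

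miR-206-3p lies at chr1:20679055-20679076 and miR-133b-3p at chr1:20682834-20682855, both on the plus strand within Lincmd1, a long non-coding RNA of muscle that is their host transcript. miR-221-3p (chrX:19146307-19146329) and miR-222-3p (chrX:19146901-19146923) are neighbours on the minus strand of the X chromosome. Aligned from the 5′ end they had 11 of 23 positions in common, of which 4 lie outside the seed. miR-6412 lies at chr10:122648412-122648433 inside the annotated long non-coding RNA Gm36284, and miR-3963 at chr3:151023839-151023857 in no other annotated gene. miR-6364 (chr16:5215790-5215811) overlaps the protein-coding gene AU021092. miR-3072-3p (chr12:109747928-109747949) belongs to the imprinted Dlk1-Dio3 region. miR-1983 (chr13:21896930-21896950) overlaps the tRNA gene n-TItat14. miR-133a-3p and miR-712-5p, which follow, are named only.

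Most miRNAs were near equality in the parental and the Wnt4 cells, and the largest ratios in size were those of 3 myomiRs, miR-206-3p, miR-133b-3p and miR-133a-3p. After normexp background correction (offset 50), quantile normalization over the 3 arrays and conversion to log2, the W4-08-PR over C2C12-PR ratio of the 302 probes detected on both arrays had a median of -0.03, with an interquartile range from -0.18 to 0.15. Of these probes, 260 (86.1%) lay within 0.5 of 0, 19 at 0.5 or above and 23 at -0.5 or below. The median array SD of a ratio was 0.16. The size limit was set at a log2 ratio of 1, which is 2-fold, with detection required on the brighter array. By it, 3 miRNAs were higher in W4-08-PR, which is 0.584% of the 514 probes detected on either array. By the same limit 9 were lower, 1.75% of the 514. Of the lower probes 8 were detected on both arrays, and the remaining one, miR-669e-5p, on C2C12-PR only. Since no replicate exists, these are sizes and not tested differences. Ratios scattered more among bright probes than dim ones, in part by construction, because the offset draws dim probes toward 0. The 89 probes with a mean under 30 units had an SD of 0.14 between probes and none passed the limit, whereas the 37 probes between 300 and 1000 units had an SD of 1.05 and held 3 of the higher and 2 of the lower miRNAs.

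**Figure D1:**
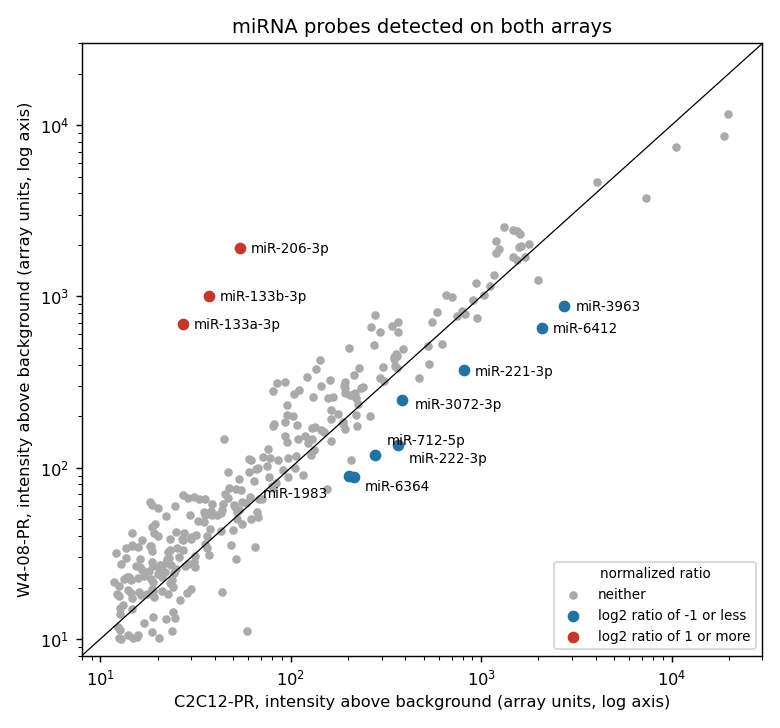
Intensity above background of the 302 miRNA probes detected on both arrays, C2C12-PR on the x axis and W4-08-PR on the y axis, in array units on log axes, with the line of equality; 1 point is 1 probe on 1 array each. The 3 red points, far above the line, are miR-206-3p, miR-133b-3p and miR-133a-3p, and the 8 blue points below it had a log2 ratio of -1 or less.

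These 3 myomiRs had the highest ratios. miR-206-3p read 54.4 units in C2C12-PR and 1917 in W4-08-PR, with 219 in C2C12-DF, a log2 ratio of 3.87 ± 0.15 (14.6-fold on the normalized scale). It moved from rank 154 to rank 14 of the 1265 probes by brightness. miR-133b-3p, its neighbour in Lincmd1, read 37.3 and 1009 units, with 100.2 in C2C12-DF, a log2 ratio of 3.20 ± 0.19. miR-133a-3p read 27.2 and 693 units, with 75.8 in C2C12-DF, a log2 ratio of 2.75 ± 0.19. All 3 were dim but detected in the parental cells, and in W4-08-PR they were brighter than in the parental cells kept in differentiation medium. The size depends on the scale, since the readings of C2C12-PR are within reach of the offset. On background-subtracted intensity scaled to the spike controls the ratios were 5.07, 4.69 and 4.60.

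The other probes of the muscle-enriched list were dim on both arrays. The list held 20 probes, of which 5 were detected on both arrays, 3 on W4-08-PR alone and 12 on neither. miR-1a-3p, a myomiR of differentiated muscle, read 2.76 units in C2C12-PR, below detection, and 31.3 in W4-08-PR. With C2C12-PR set to its detection limit the log2 ratio was at least 0.24, a bound that the offset draws toward 0. In units above background miR-1a-3p was at least 2.63-fold brighter in W4-08-PR than that limit. The probe shared by miR-486-5p and miR-3107-5p, of which miR-486 is enriched in striated muscle, read 14.7 and 35.2 units, a log2 ratio of 0.23 ± 0.17. miR-486-3p, from the same hairpin, read 18.9 and 21.6 units (-0.05 ± 0.19). Scaled to the spike controls, the ratios of these miR-486 probes were 1.19 and 0.12. The miR-3107-3p probe, which is outside the list, was brighter and went the other way. It read 207 units in C2C12-PR and 111 in W4-08-PR (-0.94 ± 0.15), with -0.97 when scaled to the spike controls. Both miR-208a arms were also detected on W4-08-PR alone. miR-208a-5p read 9.49 units in C2C12-PR and 20.7 in W4-08-PR, and miR-208a-3p -5.21 and 11.6 units. The latter reading is under 11.9 units, the dimmest detected level of C2C12-PR. No miR-499 probe and neither miR-208b probe was detected on either array. In a bulk culture a larger share of differentiated cells and more myomiR per cell cannot be told apart.

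**Figure D2:**
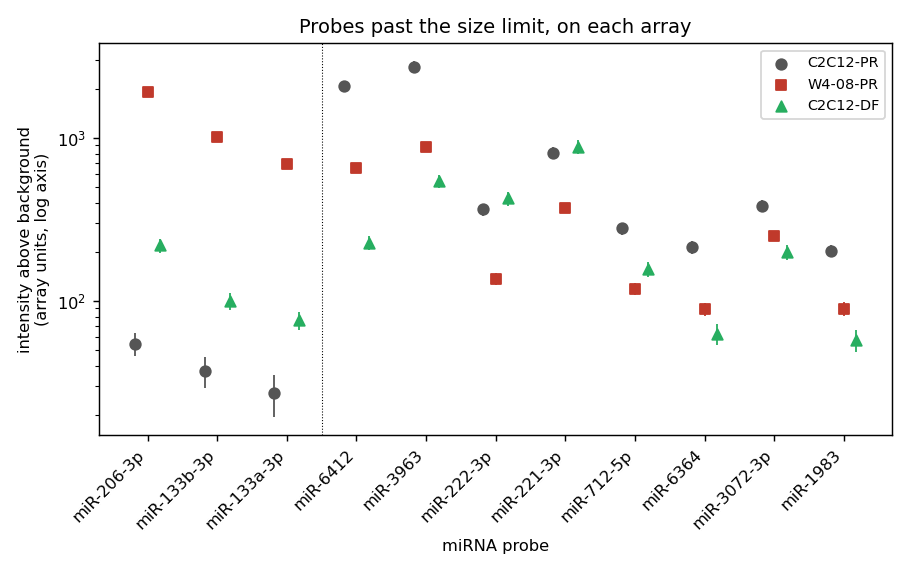
Intensity above background, in array units on a log axis, of the 11 miRNA probes past the size limit and detected on both arrays, on the C2C12-PR, W4-08-PR and C2C12-DF arrays; each point is 1 spot and the bars are 1 SD from the blank and spike spots. To the left of the dotted line the 3 myomiRs are brightest in W4-08-PR, and to the right all 8 miRNAs are dimmer in W4-08-PR than in C2C12-PR.

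On the other side of equality, miR-6412 and miR-3963, both bright in parental cells, had the lowest normalized ratios of the probes detected on both arrays. miR-6412 read 2077 units in C2C12-PR against 656 in W4-08-PR (C2C12-DF, 227 units), and its log2 ratio was -2.06 ± 0.16, 4.18-fold lower. Its brightness rank went from 7 to 41. miR-3963 read 2740 units in C2C12-PR against 882 in W4-08-PR (C2C12-DF, 543 units), a log2 ratio of -1.66 ± 0.08. These miRNAs share no seed, and 6 of 19 positions were the same when both were read from the 5′ end. In C2C12-DF both were lower still than in W4-08-PR.

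miR-221-3p and miR-222-3p formed the other marked group, lower in W4-08-PR than in either parental culture. miR-222-3p read 364 units in C2C12-PR against 137 in W4-08-PR (C2C12-DF, 425 units), a log2 ratio of -1.50 ± 0.22. miR-221-3p read 814, 371 and 881 units in the same order, a log2 ratio of -1.25 ± 0.15. Both of the seed GCUACAU thus stood more than 2-fold lower in the Wnt4 cells, while the readings of parental cells in both media were close to each other. The 5p probes of the pair were detected on neither array.

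The remaining lower miRNAs came from unrelated genes. miR-712-5p read 279 units in C2C12-PR and 118 in W4-08-PR, a log2 ratio of -1.20 ± 0.13. miR-6364 read 214 and 88.9 units (-1.16 ± 0.12), and miR-1983, which overlaps a tRNA gene, 203 and 89.5 units (-1.08 ± 0.14). miR-3072-3p read 384 and 249 units (-1.13 ± 0.20), readings nearer to each other in proportion than those of the others, and scaled to the spike controls its ratio was -0.70. miR-669e-5p, of the large Sfmbt2 intron cluster, read 65.5 units in C2C12-PR, -1.20 in W4-08-PR and -1.89 in C2C12-DF. Set against the detection limit of W4-08-PR, its normalized ratio was -0.91 or lower, a bound that the offset draws toward 0. In units above background it was at least 6.71-fold brighter in C2C12-PR than that limit. It rested on 1 spot of 1 array.

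miR-487b-3p, a Dlk1-Dio3 miRNA that the study followed up, was under the size limit on the normalized scale. It read 59.0 units in C2C12-PR against 11.1 in W4-08-PR (C2C12-DF, 13.0 units), and its normalized log2 ratio was -0.79 ± 0.18. The reading of W4-08-PR was 1.73 blank SDs above background, and the offset weighs most at such levels. With an offset of 10 the ratio was -1.36, and on intensity scaled to the spike controls -2.48, the lowest of all probes detected on both arrays on that scale, ahead of -1.74 for miR-6412 and -1.71 for miR-3963. Over 10 settings, the reported one and other scalings, offsets and background corrections, it was below -1 in 6 and below 0 in all 10.

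On the higher side the next miRNA was miR-711, from the collagen gene Col7a1, which read 278 units in C2C12-PR and 783 in W4-08-PR (C2C12-DF, 482 units), a log2 ratio of 0.97 ± 0.18. It passed the limit in 7 of the 10 settings. The miR-378 group followed, just under the limit on the normalized scale and past it in most others, miR-378c in 8 of the 10 settings and miR-378a-3p, miR-378b and miR-378d in 7 each. miR-378 miRNAs are known to increase in differentiating myoblasts, and miR-378a lies in the gene of the coactivator PGC-1β. The sequences of miR-378b, miR-378c and miR-378d are shown because their bases 2 to 8 differ although the family is one.
miR-378b: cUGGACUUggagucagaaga
miR-378c: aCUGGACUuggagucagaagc
miR-378d: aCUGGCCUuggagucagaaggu
miR-378c read 85.1 units in C2C12-PR against 314 in W4-08-PR (C2C12-DF, 144 units), a log2 ratio of 0.95 ± 0.15. miR-378d read 93.7, 318 and 146 units (0.89 ± 0.13), miR-378b 80.9, 282 and 133 units (0.88 ± 0.13), and miR-378a-3p 143, 425 and 220 units (0.88 ± 0.13). All 4 were thus higher in W4-08-PR by nearly the same amount. miR-378b and miR-378c have a run of 19 bases in common, and miR-378c and miR-378d differ at 2 of 21 positions. How much of the signal of each probe comes from the other members was not tested. The other arm, miR-378a-5p, was detected in W4-08-PR only, at 25.2 units against 9.58.

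miR-199 and miR-214, which are transcribed together from the Dnm3os RNA and from antisense units in dynamin genes and are known from mesenchymal cells, were also higher. miR-214-3p read 135 units in C2C12-PR and 379 in W4-08-PR (0.72 ± 0.13). The probe shared by miR-199a-3p and miR-199b-3p read 263 and 663 units (0.67 ± 0.17), miR-199a-5p 203 and 498 units (0.67 ± 0.13), and miR-199b-5p 95.3 and 233 units (0.51 ± 0.12). In C2C12-DF the same 4 probes read 229, 287, 218 and 107 units. The miR-199 probes were there nearer to C2C12-PR, and miR-214-3p, with normalized log2 levels of 7.81 in C2C12-PR, 8.29 in C2C12-DF and 8.53 in W4-08-PR, nearer to W4-08-PR. Only miR-214-5p, the dim arm, was not higher, at 20.9 and 26.3 units (-0.02 ± 0.18).

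miR-143 and miR-145, a pair known from smooth muscle and fibroblasts, showed a similar size. miR-145a-5p read 122 units in C2C12-PR against 339 in W4-08-PR, with 366 in C2C12-DF (0.70 ± 0.11). miR-143-3p read 111 and 283 units, with 116 in C2C12-DF (0.57 ± 0.12). Thus both partners were higher in W4-08-PR, and in C2C12-DF miR-145a-5p alone was at that level.

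**Figure D3:**
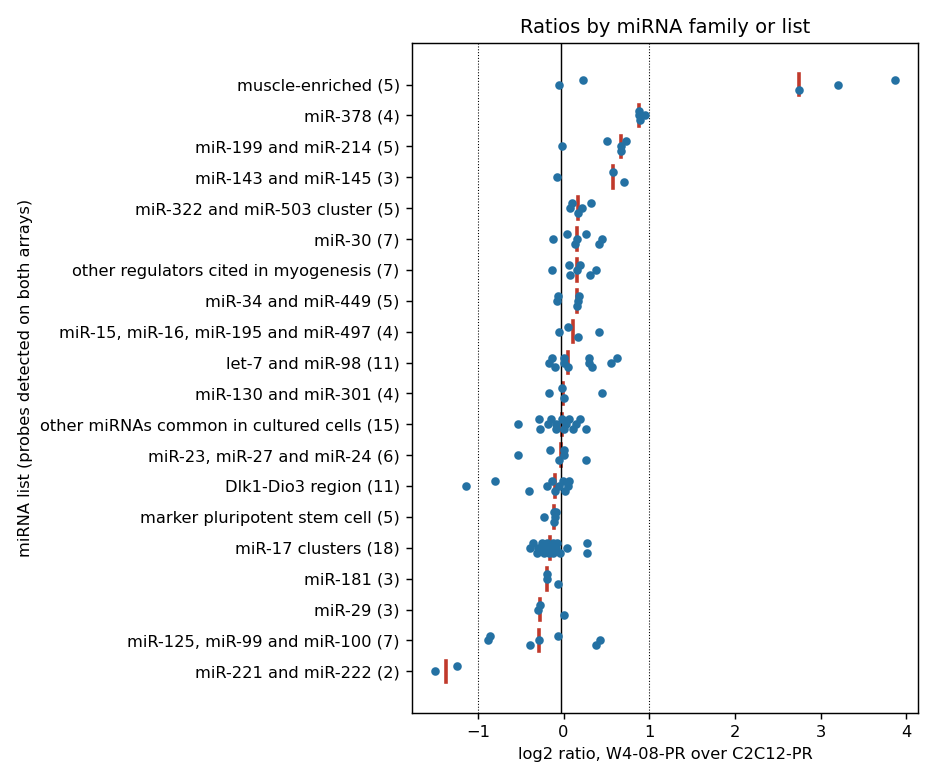
Log2 ratio of W4-08-PR over C2C12-PR (x axis) for the miRNA probes detected on both arrays, by family or list (y axis, number of probes in brackets); blue points are probes, red bars list medians, the solid line the median of all 302 probes and the dotted lines the size limit of 1. The muscle-enriched list has 3 points beyond 1 and the miR-221 and miR-222 pair lies wholly below -1, while every other list has a median between -1 and 1.

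Other families stayed nearer to the centre and several were split within. Their medians are given as list medians less the median of all 302 probes, because another scaling shifts every ratio. The miR-378 list stood 0.91 above that median (0.91 to 1.45 over the 10 settings), the miR-199 and miR-214 list 0.70 above (0.64 to 0.96), and the miR-143 and miR-145 list 0.60 above (0.60 to 1.02). For the miR-221 and miR-222 list the value was -1.35 (-1.62 to -1.18). Each of these lists kept its side of the median in all 10 settings. Settings that differ only by a constant factor per array give the same relative value by construction. The 10 are therefore not separate checks.

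The let-7 family, miRNAs of differentiated cells that repress growth genes, was divided although its members carry one seed. The following 3 had the highest ratios of the bright members.
let-7b-5p: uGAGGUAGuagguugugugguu
let-7a-5p: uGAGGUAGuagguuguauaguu
let-7c-5p: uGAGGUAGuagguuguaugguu
let-7b-5p read 1198 units in C2C12-PR and 2110 in W4-08-PR (0.62 ± 0.22), let-7a-5p 1465 and 2441 units (0.55 ± 0.22), and let-7c-5p 1547 and 2424 units (0.34 ± 0.24). let-7g-5p, by contrast, read 362 and 448 units (-0.13 ± 0.23) and let-7i-5p 205 and 268 units (-0.10 ± 0.16), ratios that were above 0 when scaled to the spike controls, at 0.24 and 0.32. The array SDs overlap for most of these, and the 10 probes of the seed GAGGUAG spanned -0.17 to 0.62. let-7a-5p and let-7c-5p differ at 1 of 22 positions and so do let-7b-5p and let-7c-5p, so that their signals are not independent where a probe binds both. The summed intensity of the 22 probes of the let-7 and miR-98 list, over those detected on each array, was 7593 units in C2C12-PR and 11685 in W4-08-PR.

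In the miR-125, miR-99 and miR-100 list, the members went apart in both directions. miR-125b-5p, which is known to restrain myoblast differentiation in mouse, read 1989 units in C2C12-PR against 1256 in W4-08-PR (C2C12-DF, 3289 units), a log2 ratio of -0.86 ± 0.11. miR-125a-3p read 471 and 335 units (-0.88 ± 0.08) and miR-125a-5p 527 and 516 units (-0.39 ± 0.09). miR-99a-5p, on the other hand, read 82.0 and 180 units (0.42 ± 0.13) and miR-100-5p 93.1 and 186 units (0.38 ± 0.13).
miR-125b-5p: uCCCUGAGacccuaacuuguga
miR-125a-5p: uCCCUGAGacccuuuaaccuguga
Both sequences are shown because the miR-125 seed CCCUGAG had 4 probes detected on both arrays, 3 of them below 0, with ratios from -0.86 to 0.10. The genes of these miRNAs lie in related clusters. On chromosome 16 miR-99a-5p and let-7c-5p were both above 0, at 0.42 and 0.34. A miR-125b gene lies on that chromosome too, and its own 3p arm, miR-125b-2-3p, was detected on neither array. Both miR-125b-5p, at -0.86, and let-7c-5p are also made from genes elsewhere. Their values therefore cannot be assigned to chromosome 16 alone. On chromosome 17 miR-99b-5p was at -0.07, let-7e-5p at 0.00 and the miR-125a arms below both.

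The miR-17 clusters, miRNAs of proliferating cells, were close to equality with a tilt to the lower side. Of 30 probes 18 were detected on both arrays, and 15 of these had a ratio below 0, beside 162 of all 302, with a median 0.13 below that of all probes (0.07 to 0.24 below over the 10 settings). None reached 0.5 in size. The members of the cluster on chromosome 14 had a median of -0.18, and miR-20a-5p was lowest at -0.39 ± 0.11, with 225 units in C2C12-PR and 237 in W4-08-PR. miR-25-3p (102 and 200.1 units, 0.28 ± 0.15) and miR-106b-5p (61.9 and 111 units, 0.28 ± 0.15) of the chromosome 5 cluster stood on the other side. In raw intensity the list summed to 1990 units in C2C12-PR and 2363 in W4-08-PR, so the sign below 0 is that of the normalized values.

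Among miRNAs of the muscle literature outside these families, miR-30c-5p read 293 and 620 units (0.45 ± 0.13) and miR-30a-5p 80.6 and 174 units (0.41 ± 0.13). Other 5p members had smaller ratios, miR-30b-5p 0.14 ± 0.12, miR-30e-5p 0.04 ± 0.15 and miR-30d-5p -0.12 ± 0.13. The miR-30 list stood 0.19 above the median of all probes. All 5 probes of the X-linked miR-322 and miR-503 cluster detected on both arrays were above 0, from 0.08 to 0.32, beside 131 of all 302 probes. miR-322 and miR-503 are known to promote cell cycle exit in myoblasts, and the other probes are those of miR-351. miR-322-5p was highest at 47.0 and 94.6 units (0.32 ± 0.13). miR-503-5p was lowest (0.08 ± 0.18), and its ratio and that of miR-351-5p (0.10 ± 0.16) were smaller than their array SDs. Scaled to the 75th percentile, miR-351-3p, miR-322-3p and miR-351-5p were below 0, at -0.07, -0.10 and -0.15, and miR-322-5p was at 0.11. The miR-29 family, which rises in mature muscle, had its bright member miR-29a-3p at 1113 and 1154 units (0.00 ± 0.19) and miR-29b-3p and miR-29c-3p at -0.27 and -0.30. miR-27a-3p, whose family represses Pax3, read 621 and 529 units (-0.53 ± 0.10). miR-27b-3p of the same family read 351 and 445 units (-0.06 ± 0.21), with 0.27 when scaled to the spike controls. miR-31-5p, a regulator of Myf5 in satellite cells, read 955 and 753 units (-0.53 ± 0.16). Neither miR-27a-3p nor miR-31-5p is past the limit of size.

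The Dlk1-Dio3 region, an imprinted domain with a large miRNA cluster, was mostly below detection. Of its 112 probes 11 were detected on both arrays, 16 in W4-08-PR alone, 3 in C2C12-PR alone and 82 on neither. For all 1265 probes the counts in the same order were 302, 175, 37 and 751. The median of the 11 stood within 0.08 of that of all probes, and miR-3072-3p was its single member past the limit on the normalized scale. miR-487b-3p, described above, was at -0.79 on that scale and at -2.48 when scaled to the spike controls. miR-540-3p was the brightest of all probes detected in W4-08-PR alone, at 45.4 units against 9.65, a normalized log2 ratio of at least 0.41 and at least 3.82-fold in units above background. No probe of the 71 of the Sfmbt2 cluster type was detected on both arrays.

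Probes detected on 1 array were dim, so that with the offset of 50 their normalized bounds were small whatever the other array read. In units above background, 12 of the 175 probes of W4-08-PR alone and 6 of the 37 of C2C12-PR alone were at least 2-fold above the lowest detected level of the other array. The 175 probes of W4-08-PR alone had a median of 13.5 units, and 141 of them were under 20. Of these probes 49 were below 11.9 units, the dimmest detected level of C2C12-PR and were counted as detected by the lower limit of their own array, 9.77 units. miR-675-5p, made from the H19 RNA that is known to be active in differentiating myoblasts, read 3.36 units in C2C12-PR and 31.0 in W4-08-PR. Of the 37 probes of C2C12-PR alone 31 were under 20 units, and miR-144-3p, a miRNA of red blood cells, read 48.3 and 6.57 units, at least 4.94-fold in those units.

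Marker miRNAs of other cell types that were detected on both arrays were dim. Of all 1265 probes, 302 were detected on both arrays, 175 on W4-08-PR alone and 37 on C2C12-PR alone. None of the 14 epithelial probes (miR-200, miR-141, miR-429, miR-203 and miR-205) was detected, with a highest reading of 7.45 units in C2C12-PR and 8.55 in W4-08-PR. Of 9 neural probes none was detected on both arrays, 1 on W4-08-PR alone and 2 on C2C12-PR alone. Of 10 blood probes 1 was detected on both, miR-223-3p at 18.8 and 13.5 units, 3 on W4-08-PR alone and 1 on C2C12-PR alone. Of the 24 pluripotent stem cell probes 5 were detected on both, 5 on W4-08-PR alone and 2 on C2C12-PR alone. The brightest was miR-292-3p at 53.8 and 57.0 units, 7.08 and 8.86 blank SDs above background. It was as bright in C2C12-PR as miR-206-3p. miR-290-5p read 37.3 and 30.8 units. Of the 9 liver or endothelial probes 1 was detected on both arrays, miR-194-1-3p at 31.5 and 30.5 units, 2 on W4-08-PR alone and 1 on C2C12-PR alone. The detected probes of the blood list summed to 67.1 units in C2C12-PR and 59.7 in W4-08-PR, those of the liver or endothelial list to 44.0 and 57.3 units, and those of the stem cell list to 178 and 210 units. Their part in the ratios was not tested.

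Both arms of 34 hairpins were detected on both arrays, and how closely their arms went together depended on the scale. Some arms are made from more than 1 hairpin, among them miR-24-3p, miR-125b-5p and miR-365-3p, the last counted with each of its 5p partners. Such a pair does not compare the arms of 1 hairpin alone. On the normalized scale the median distance between the log2 ratios of the arms was 0.19, and 21 pairs were within 0.25. In 6 hairpins the arms were 0.5 or more apart. Scaled to the spike controls, without the offset, the median distance was 0.68, 9 pairs were within 0.25 and 19 were 0.5 or more apart, with miR-362 widest at 2.37. On the normalized scale miR-149 had the widest gap, since miR-149-5p read 44.5 units in C2C12-PR and 147 in W4-08-PR (0.71 ± 0.12) but miR-149-3p 311 and 320 units (-0.38 ± 0.11).
miR-149-5p: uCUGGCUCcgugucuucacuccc
miR-149-3p: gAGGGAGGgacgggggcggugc
These sequences from one hairpin at chr1:92850381-92850442, within the glypican gene Gpc1, are shown because their ratios were on opposite sides of 0. miR-3072 was 1.08 apart, with the 5p arm at 129 and 171 units (-0.05 ± 0.11), and miR-652 0.91 apart. In only 4 of the 34 pairs were both arms above 50 units on both arrays, so that most distances include a dim arm.

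**Figure D4:**
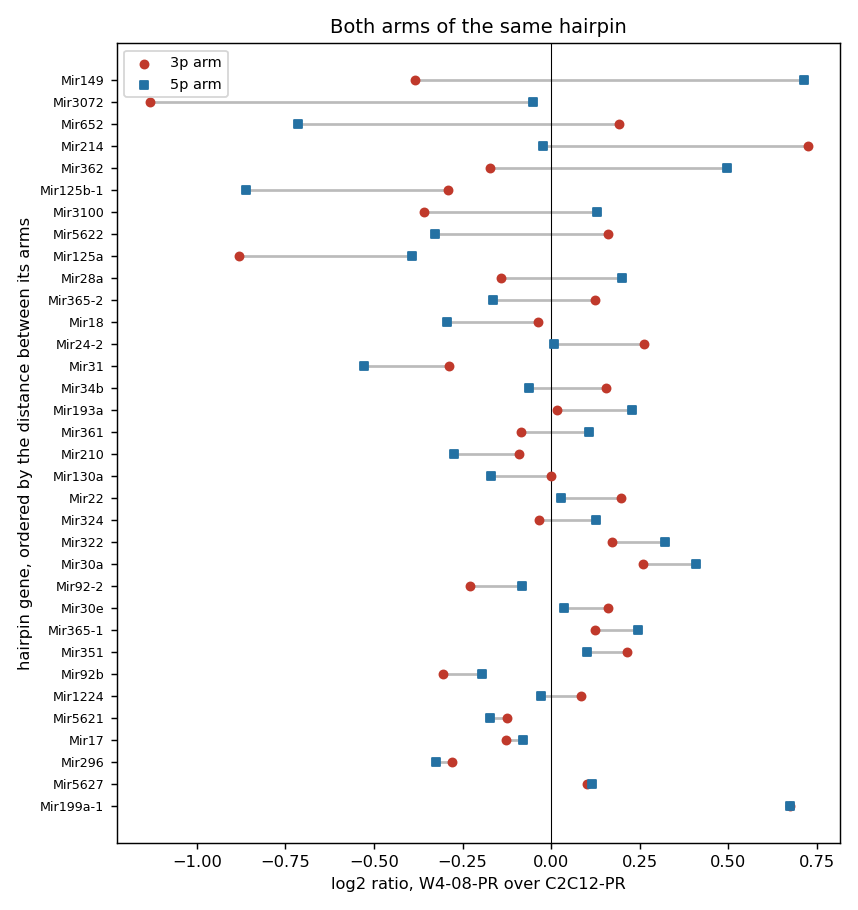
Normalized log2 ratio of W4-08-PR over C2C12-PR (x axis) of the 3p arm (red circles) and 5p arm (blue squares) of the 34 hairpin genes (y axis) with both arms detected on both arrays; a grey line joins the arms of 1 hairpin. The arms of 21 hairpins are within 0.25 of each other and those of miR-149 and miR-3072 are more than 1 apart. Some arms, such as miR-365-3p, are made from more than 1 hairpin.

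Late-named miRNAs, those with high numbers in miRBase, were more frequent on the lower side than on the higher side. Of 105 probes numbered 1000 or more and detected on both arrays, 13 had a ratio of -0.5 or below and 1 of 0.5 or above. Of 106 probes numbered from 100 to below 500, 6 were at -0.5 or below and 15 at 0.5 or above. The class numbered 1000 or more also held the brightest probes of the array. miR-5100 read 19680 units in C2C12-PR and 11605 in W4-08-PR, miR-3968 18879 and 8645 units, and miR-6366 10577 and 7465 units. Their normalized ratio is 0.00 by construction, because they are the 3 brightest probes of both arrays in the same order and quantile normalization gives equal ranks equal values. Scaled to the spike controls their log2 ratios were -0.83, -1.20 and -0.57. The 105 probes together gave 86074 units in C2C12-PR and 62547 in W4-08-PR, and the 10 brightest probes took 57.3% and 41.0% of the summed signal of detected probes. The medians of the class numbered 1000 or more and of that from 100 to below 500 were -0.06 and 0.00, and their median GC contents 63.6% and 50%. Whether base composition has a part in this was not tested.

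Small ratios changed side with the scale. Of 103 named miRNAs detected on both arrays, 55 were above 0 in some of the 10 settings and not in others, 9 of them with a reported ratio of 0.5 or more in size. Scaled to the spike controls, the median of the 302 probes was 0.26, and 50 probes were higher and 22 lower by the limit of 1. In the values the authors processed, where each array is brought to a median of 25 over its own detected probes, the median was 1.04, and 161 were higher and 1 lower. That median was 44.5 units above background on C2C12-PR and 27.3 on W4-08-PR, and the factors that bring it to 25 were 0.561 and 0.914. With no normalization between arrays the counts were 12 and 6. miR-206-3p, miR-133b-3p and miR-133a-3p were higher by the limit in all 10 settings, with ratios of 3.65 to 5.84, 2.99 to 5.46 and 2.64 to 5.37. miR-6412, miR-3963, miR-221-3p and miR-222-3p were lower by the limit in 9 of 10, and in the values processed by the authors they were at -0.96, -0.93, -0.43 and -0.71. miR-712-5p, miR-6364 and miR-1983 were lower by the limit in 8 of the 10 settings, and miR-3072-3p in 5. miR-3072-3p was the only one of the 8 to change side, with 0.079 in the values processed by the authors. In the same values miR-125b-5p, miR-125a-3p, miR-27a-3p and miR-31-5p were also above 0, at 0.040, 0.21, 0.47 and 0.36, below the median of 1.04. Of the list medians, 4 changed side of the median of all probes. They were above it in 3 of the 10 settings for the Dlk1-Dio3 region and in 6 for miR-23, miR-27 and miR-24. For other miRNAs common in cultured cells it was 6, and for miR-10, a list with 1 probe detected on both arrays, 7. Several of the 10 give the same relative value by construction, so these counts are not of separate checks.

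**Figure D5:**
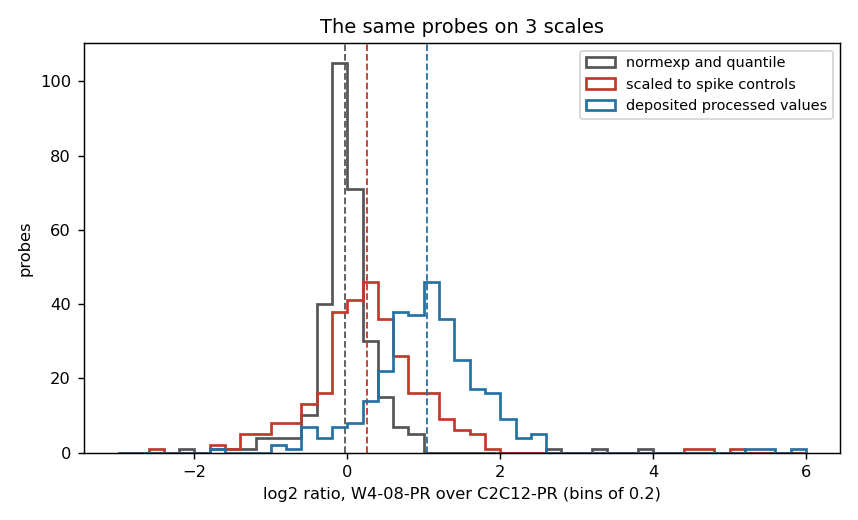
Distribution of the log2 ratio of W4-08-PR over C2C12-PR (x axis, bins of 0.2) for the same 302 probes (y axis, number of probes) on 3 scales: normexp and quantile (grey), intensity less background scaled to the spike controls (red) and the processed values as deposited (blue), with dashed lines at the medians of -0.03, 0.26 and 1.04. The 3 myomiRs are the separate probes at the right end on each scale.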

How the data were processed

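Total RNA of each culture was measured on 1 Toray 3D-Gene mouse miRNA array. The authors deposited linear spot intensity before background subtraction, and beside it a processed signal. For that signal the authors took off the mean of the blank spots, trimmed by 5%, and set the median over each array's detected probes to 25. It is missing below a limit near 2 SD of the trimmed blanks. Scanner settings are not given in the sources used here.

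Intensities were corrected with normexp (limma 3.58.1, R 4.3.3; offset 50, trimmed blank mean as background), quantile-normalized over 1265 miRNA probes of 3 arrays and converted to log2. Python 3.11.15 with numpy 2.4.6, pandas 2.3.3, scipy 1.17.1 and matplotlib 3.10.9 did the rest. The steps were tested on simulated data. A probe was called where its log2 ratio reached 1 or -1 and the brighter array detected it. A probe undetected on 1 array gives a bound from that array's lowest detected level. Having 1 array per condition limits the precision. Named miRNAs are those the paper names, the 20 highest and 20 lowest ratios, the 10 largest bounds each way, the 10 brightest probes of each array, and per list the called probes and the 4 brightest. Any other was named after its values were seen. Clusters joined genes within 10 kb. Members, lists and limits were chosen with earlier results of these data known. Alternatives were other scalings, plain subtraction, an offset of 10, the deposited processed signal, detection required on both arrays or at 3 SD, and a size limit of 0.9 or 2. Plain subtraction scaled to the median was added after seeing the data.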

Additional observations from a re-analysis of the deposited data

How the results depend on the processing

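The counts of 3 higher and 9 lower miRNAs and the median of -0.03 moved mainly with the scale and the handling of dim probes. Median scaling gave 8 higher, and scaling to the 75th percentile gave 16 lower and a median of -0.26. No between-array normalization gave 12 higher and a median of 0.13. An offset of 10 gave 11 higher. Plain background subtraction gave 23 higher and 31 lower, the same scaled to the spike controls 50 and 22 with a median of 0.26, and scaled to the median of the probes detected on all arrays, a choice made after seeing the data, 17 and 44. The authors' processed values gave 161 higher, 1 lower and a median of 1.04, and turned miR-3072-3p to 0.079. A size limit of 0.9 gave 5 higher and a limit of 2 gave 1 lower. The cause of these shifts was not tested. Quantile normalization of the 2 arrays alone, detection on both arrays and a limit of 3 SD left both counts within 1.5 times. Of 103 named miRNAs detected on both arrays, 3 moved by more than their array SD with quantile normalization of the 2 arrays, 24 with an offset of 10, and 79 when scaled to spikes. In the authors' processed values 1 stayed within it.

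No paired analysis was possible because each condition has 1 array. Variation between cultures, sublines and RNA extractions was not measured. None of the 89 probes averaging under 30 units passed the size limit, where the offset of 50 exceeds the signal. Signals of probes for near-identical miRNAs were not separated.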
